A study of Mus musculus with 24 samples.

Results

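The cerebellar genes studied here, the neuronal genes Pcp2, En2, Zic1, Cbln1, Cbln3 and Calb1 and the Bergmann glia gene Gdf10, were examined on bead arrays of mouse brain, with heart and liver as background. They are 7 of the 16110 genes named on the array, were taken by gene symbol, and are measured by 8 probes; Cbln3 has 2 probes and is given by the one with the higher mean. The genes were selected on the measured differences between treated and untreated brain in earlier results of these same arrays, so their differences between treated and untreated brain are a description and carry no test. Each of the 24 arrays held RNA of 1 tissue and 1 time. Treated brain, heart and liver came from mice given an aqueous extract of Ephedra herba, a plant of traditional medicine, by mouth at 50 mg/kg and sampled at 1, 6, 12 and 24 h and at 3, 5 and 10 d. Untreated brain, heart and liver gave 1 array each. All mice were 5-week-old female C57BL/6 animals kept on a 12 h dark/light cycle. How many animals stand behind an array, and which part of the brain was taken, the sources used here do not say.

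The cerebellar cortex is built around Purkinje cells, the output neurons of that cortex. They receive synapses from the far more numerous granule cells and are wrapped by a specialised astrocyte, the Bergmann glia. Pcp2 is a Purkinje cell modulator of G-protein signalling and Calb1 is the calcium buffer calbindin, abundant in the same cells. En2 is a homeobox factor that patterns the midbrain and cerebellum, and Zic1 is a zinc finger factor of granule cells and their precursors. Cbln1 and Cbln3 are cerebellins secreted by granule cells, of which Cbln1 bridges presynaptic neurexins to a glutamate receptor relative on Purkinje cells. Gdf10 is a secreted ligand of the bone morphogenetic protein family found in Bergmann glia.

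Promoter windows in the RefSeq table (GRCm38.p6) were matched to 4 of the 7 genes, Pcp2, Zic1, Gdf10 and Cbln3. The first 3 are shown because these genes varied together on the brain arrays, as the 250 bases before the annotated start, 5′ to 3′ in the direction of the gene. Capitals mark AGGTCA, a half-site of nuclear receptors that is not specific to the ROR receptors, and the GC box GGGCGG or its reverse complement CCGCCC. Binding of any factor to these stretches was not tested. The Pcp2 window is chr8:3625548-3625797 on the minus strand, before the most upstream of its 4 annotated starts.
Pcp2: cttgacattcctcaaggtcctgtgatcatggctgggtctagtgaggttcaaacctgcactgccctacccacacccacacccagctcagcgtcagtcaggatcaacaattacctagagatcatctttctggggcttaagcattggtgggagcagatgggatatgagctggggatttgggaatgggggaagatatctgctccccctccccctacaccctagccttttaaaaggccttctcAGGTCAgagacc
The Zic1 window is chr9:91365769-91366018 on the minus strand.
Zic1: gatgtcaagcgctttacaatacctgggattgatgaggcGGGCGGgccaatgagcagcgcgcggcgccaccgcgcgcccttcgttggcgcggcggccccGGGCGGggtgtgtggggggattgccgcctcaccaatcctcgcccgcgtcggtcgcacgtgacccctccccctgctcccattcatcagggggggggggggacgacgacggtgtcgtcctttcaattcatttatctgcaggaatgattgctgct
The Gdf10 window is chr14:33923337-33923586 on the plus strand.
Gdf10: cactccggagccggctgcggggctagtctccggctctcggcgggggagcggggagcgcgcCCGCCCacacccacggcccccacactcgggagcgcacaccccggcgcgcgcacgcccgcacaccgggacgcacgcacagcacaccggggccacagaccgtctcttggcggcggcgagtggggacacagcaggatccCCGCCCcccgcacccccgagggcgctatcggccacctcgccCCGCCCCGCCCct
The Pcp2 window held 1 AGGTCA, whose first base lies 12 bases before the start. Searched on both strands, that motif occurs in 14% of the 32851 promoter windows of the table. Zic1 held 2 copies of GGGCGG on the strand shown and Gdf10 4 copies on the other strand, of which a pair overlap. The GC box occurs in 32.7% of all windows. The Zic1 and Gdf10 windows were rich in G and C, at 66% and 78.8%, against a median of 52.4% over all windows, and Pcp2 was at 52.8%. The Cbln3 window held neither motif. En2, Cbln1 and Calb1 are named only.

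Values are the authors' deposited log2 values, on which the median of every array lies near 0; a gene is called detected on an array if its value exceeds the median of all probes there, because detection p-values were not used here. The brain arrays differed in shape. The 5th percentile of their values was -0.940, -0.932, -0.940 and -0.933 on the treated arrays of 6, 12 and 24 h and 5 d, and -0.930 on that of 3 d. On the treated arrays of 1 h and 10 d it was -0.912 and -0.912, against -0.913 on the untreated array. The upper quartile was 1.82, 1.78, 1.82 and 1.86 on the arrays of 6, 12 and 24 h and 5 d. It was 1.87 and 1.92 on those of 3 and 10 d, and 1.97 at 1 h, against 1.98 on the untreated array. At 12 h, 9.61% of the 10934 genes tested were at least 2-fold lower than on the untreated array, the largest share among the 7 treated brain arrays.

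Of the 7 genes, Pcp2, En2, Zic1, Cbln1 and Gdf10, were detected on 6 or more of the 8 brain arrays, and on the mean of the 7 treated brain arrays all 5 were at least 2-fold higher than on the untreated brain array. Cbln3 and Calb1 were below the array median on all 24 arrays. Across the 10934 genes tested, 0.466% were at least 2-fold higher and 0.183% at least 2-fold lower in the same comparison. Because the genes were chosen with this contrast known, nothing is read from their count. Ranked by the difference, Pcp2 was 1, En2 2, Zic1 3, Cbln1 4 and Gdf10 7 of 10934. In bulk tissue, a different share of cells of a type and a different amount of RNA per cell cannot be told apart.

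Pcp2, the Purkinje cell gene, read -0.76 at 1 h, 4.71 at 6 h, 3.58 at 12 h, 5.23 at 24 h, 2.86 at 3 d, 5.32 at 5 d and 2.91 at 10 d on the treated brain arrays, against -0.01 on the untreated array. It lay below the array median in untreated brain and at 1 h, and well above it on the other 6 arrays. Since the untreated array gave only an upper limit, Pcp2 was at least 26.1-fold higher at 6 h, 11.9-fold at 12 h, 37.4-fold at 24 h, 7.24-fold at 3 d, 39.9-fold at 5 d and 7.52-fold at 10 d. The treated arrays averaged 3.41 ± 2.11 (SD over 7 times), the widest spread of the 7 genes. Calb1, the other Purkinje cell gene, ran from -1.08 to -0.84 over the treated brain arrays, against -0.92 on the untreated array. All of its values lay in the lowest part of each array's range, so no difference in Calb1 was measurable here.

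Of the developmental transcription factors, En2 read -0.23 at 1 h, 3.02 at 6 h, 3.59 at 12 h, 3.62 at 24 h, 1.79 at 3 d, 3.45 at 5 d and 1.69 at 10 d on treated arrays, against 0.13 in untreated brain. Its treated mean was 2.42 ± 1.42 (SD over 7 times), 2.29 above the untreated value or 4.89-fold. The untreated En2 value lay only just above that array's median of 0.003, so the fold rests on a reference near the limit used for detection. En2 was detected on 7 of 8 brain arrays, the exception being 1 h. Zic1, the granule cell factor, read 1.75, 4.03, 4.25, 4.44, 3.13, 4.44 and 2.98 at 1, 6, 12 and 24 h and 3, 5 and 10 d on treated arrays, against 1.87 in untreated brain. The Zic1 mean of 3.58 ± 1.00 in treated brain (SD over 7 times) was 1.70 above the untreated value, or 3.26-fold. For both factors the 1 h array lay below the untreated array and every later array lay above it.

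Among the cerebellins, Cbln1 read 3.67, 5.93, 5.81, 6.63, 4.61, 6.54 and 4.66 at 1, 6, 12 and 24 h and 3, 5 and 10 d on treated arrays, against 3.83 in untreated brain. It was detected on all 8 brain arrays, and its treated mean of 5.41 ± 1.11 (SD over 7 times) was 1.58 higher, or 2.99-fold. Cbln3, which is known to assemble with Cbln1, ran from -1.07 to -0.74 on treated arrays against -0.86 in untreated brain. The other Cbln3 probe was as low, at -1.07 to -0.78 over the 8 brain arrays. Gdf10, the Bergmann glia ligand, read 1.82, 3.54, 3.60, 4.08, 2.10, 3.99 and 2.28 at 1, 6, 12 and 24 h and 3, 5 and 10 d on treated arrays, against 1.57 in untreated brain. Its treated mean was 3.06 ± 0.96 (SD over 7 times), which is 1.49 higher or 2.81-fold. Gdf10 exceeded the untreated value on 7 of 7 treated arrays, and Pcp2, En2, Zic1 and Cbln1 on 6 of 7.

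**Figure D1:**
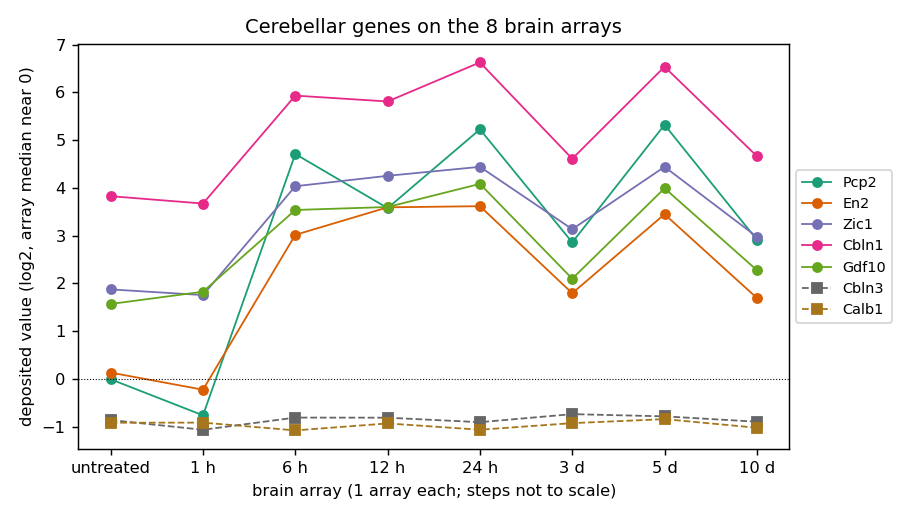
Deposited log2 value (vertical axis) of each of the 7 genes on the 8 brain arrays (horizontal axis, time order, 1 array per point and steps not to scale). Pcp2, En2, Zic1, Cbln1 and Gdf10 are highest at 6, 12 and 24 h and 5 d and lowest at 1 h and on the untreated array, while Cbln3 and Calb1 (dashed) lie between -1.08 and -0.74 throughout.

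The 5 detected genes put the brain arrays in the same 3 steps. The arrays of 6, 12 and 24 h and 5 d were the highest for each gene, those of 3 and 10 d came next, and 1 h and untreated were lowest, with no overlap between steps. For Pcp2 the steps were 3.58 to 5.32, then 2.86 to 2.91, then -0.76 to -0.01. For Cbln1 they were 5.81 to 6.63, then 4.61 to 4.66, then 3.67 to 3.83. Gdf10 gave 3.54 to 4.08, then 2.10 to 2.28, then 1.57 to 1.82. With 1 array per time, neighbouring times within a step cannot be separated by a spread between replicates. Of the 10934 genes tested, 3.58% showed the same 3 steps and 9.63% showed them turned round. All 4 of the highest arrays lay above the other 4 for 10.5% of genes and below them for 17.4%, and 8.91% were higher on all 7 treated brain arrays than on the untreated array. The 5th percentile of all values was also lower at 6, 12 and 24 h and 3 and 5 d than on the others. The upper quartile fell into the same 3 steps turned round, at 1.78 to 1.86, then 1.87 to 1.92, then 1.97 to 1.98. It did so on the heart arrays too, at 1.52 to 1.53, then 1.65 to 1.69, then 1.72, but not on the liver arrays. The part of array shape in the values of the 5 genes was not tested. The 10 d brain array had nearly the same 5th percentile as the untreated brain array. Its upper quartile was lower, at 1.92 against 1.98 on the untreated array, and so was its highest value, 8.13 against 8.50. At 10 d Pcp2 was higher than in untreated brain by at least 2.91 (log2), En2 by 1.56, Zic1 by 1.10, Cbln1 by 0.84 and Gdf10 by 0.71.

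Array by array, 0 of the 7 genes were at least 2-fold higher than in untreated brain at 1 h, where 0.0274% of genes tested were. At 6, 12 and 24 h and 5 d the 5 detected genes passed that fold, against 1.25%, 2.94%, 2.11% and 2.56% of genes tested. At 3 and 10 d Pcp2, En2 and Zic1 passed it, against 0.741% and 0.128%. Cbln1 was 1.72-fold and 1.79-fold higher at 3 and 10 d, and Gdf10 1.44-fold and 1.63-fold. None of the 7 genes was at least 2-fold lower on any treated brain array. From 1 h to 10 d that fall was seen in 0.064%, 1.03%, 9.61%, 1.75%, 0.146%, 1.48% and 0.0366% of genes tested.

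**Figure D2:**
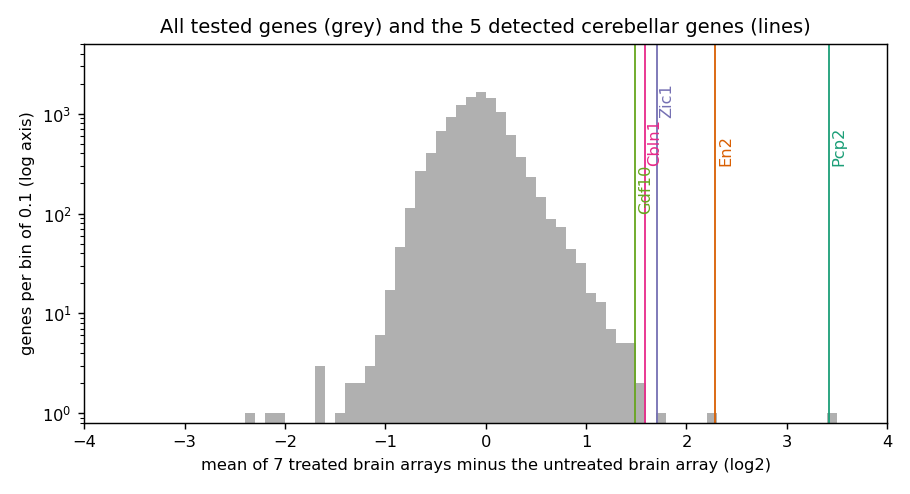
Number of genes (vertical log axis) by the difference between the mean of 7 treated brain arrays and the untreated brain array (horizontal axis, log2, bins of 0.1) for the 10934 genes tested in grey. Coloured lines mark Gdf10 at 1.49, Cbln1 at 1.58, Zic1 at 1.70, En2 at 2.29 and Pcp2 at 3.41, in the right tail from which they had been chosen.

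Across the 8 brain arrays, Pearson correlations among the 5 detected genes ran from 0.898 for Pcp2 with Gdf10 to 0.9965 for En2 with Zic1. These are a description of 8 arrays that share their normalization and shape, and the genes were chosen for their common pattern. Among 1960 other genes that were detected on all 8 brain arrays and spanned at least 1 on the log2 scale, 7.09% correlated with the mean profile of the 7 genes at 0.9 or above and 8.83% at -0.9 or below. The closest were Zfp385c (r = 0.987), the splicing regulator Celf2 (0.987), C1galt1c1, a chaperone of O-glycan synthesis (0.978), the interferon-induced GTPase Irgm1 (0.978) and the glypican Gpc5 (0.978). Retreg2 (0.978), the lysophosphatidic acid receptor Lpar1 (0.975), the dynein light chain Dynlt3 (0.974), the spindle protein Spag5 (0.973) and the nicotinic receptor subunit Chrna4 (0.972) followed. Celf2 read 3.03, 4.18, 4.22, 4.23, 3.55, 4.40 and 3.47 from 1 h to 10 d on treated arrays, against 3.07 in untreated brain. The lowest correlations were those of the actin-binding Coro2b (-0.992), the endosomal sorting gene Hgs (-0.990), the AMPA receptor partner Cnih2 (-0.990), Bahd1 (-0.988) and Tmem179 (-0.988). Coro2b read 4.36, 3.16, 3.28, 2.82, 3.73, 3.04 and 3.71 on the treated arrays in time order, against 4.23 in untreated brain.

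Other cerebellar genes that were detected differed by at most 1.11 (log2) between treated and untreated brain. The limma fit of 7 treated brain arrays against the untreated one, which takes the spread of the treated arrays for that of the single untreated one, passed 0 of 10934 genes. The lowest adjusted p was 0.915, and 427 genes had an unadjusted p under 0.05. No gene of the lists below passed, so each is given by its values. A list is described over its genes detected on at least 4 of the 8 brain arrays, to be read against the 8836 genes so detected, whose median difference was -0.11 and of which 11.3% were highest at 6, 12 and 24 h and 5 d. Of 12 Purkinje cell genes detected, 8 were highest on those 4 arrays, and the median difference was 0.28. The lists were chosen with earlier results of these data known, so nothing is read from such counts. Lhx1, a homeobox factor of Purkinje cells, averaged 1.04 ± 0.63 in treated brain (SD over 7 times), against 0.14 in untreated brain, a difference of 0.91. Ppp1r17, an inhibitor of protein phosphatases, differed by 0.45, the nuclear receptor Rora by 0.41 and Lhx5 by 0.33. Rora read 3.30, 3.69, 4.04, 3.96, 3.57, 4.15 and 3.46 on the treated arrays in time order, against 3.33 in untreated brain.

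Of 15 granule cell genes on the array 10 were detected, with a median difference of 0.24. Of these, 4 were highest at 6, 12 and 24 h and 5 d. Chn2, a Rac GTPase-activating protein of granule cells, averaged 4.45 ± 0.64 in treated brain (SD over 7 times), against 3.34 in untreated brain, a difference of 1.11. The ETS factor Etv1 differed by 0.75, Cadps2, a factor of vesicle release, by 0.37 and Zic2 by 0.26. Gabra6, the receptor subunit that defines mature granule cells, was above the array median only at 12 and 24 h, at 0.12 and 0.07, and read -0.91 in untreated brain. Of 7 Bergmann glia genes, Slc1a3, the glutamate transporter, differed by -0.28, Timp4 by 0.13 and Wif1 by -0.09. The other 4 were detected on fewer than 4 brain arrays, and Hopx, Fabp7 and Septin4 on 0 of 8. The interneuron factor Tfap2b differed by 0.69. The cerebellar label thus rested on Pcp2, En2, Zic1, Cbln1 and several Purkinje and granule cell genes. Calb1, Cbln3 and the Bergmann glia markers Hopx, Fabp7 and Septin4 were below the median on every brain array. So were the Purkinje cell gene Pcp4 and the granule cell genes Fat2, Pax6 and Mab21l1. Of the detected genes, Grm4 (-0.12), Gabrd (-0.06) and Grin2c (0.02) of granule cells and Aldoc (-0.07) of Purkinje cells differed little.

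The 10 detected relatives of the 7 genes by sequence family differed by between -0.51 and 0.33 between treated and untreated brain. En1, the paralog of En2, differed by 0.31 and Zic4 by 0.19. The cerebellins Cbln2 and Cbln4 differed by 0.09 and -0.26, and the related C1ql3 and C1ql2 by 0.33 and -0.29. Bmp3, the closest relative of Gdf10, averaged 0.28 ± 0.20 in treated brain (SD over 7 times), against 0.78 in untreated brain, a difference of -0.51. The neurexins Nrxn2 and Nrxn3, of the family that binds Cbln1, differed by -0.52 and -0.04.

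Genes of other brain regions varied on the same arrays. Of 14 hindbrain genes on the array 4 were detected, and 3 of them were highest at 6, 12 and 24 h and 5 d. Their median difference was 0.63, against 0.28 for Purkinje and 0.24 for granule cell genes. The differences were 1.11 for Tph2, the serotonin-synthesis enzyme of the raphe, 0.64 for Hoxb5, 0.62 for Hoxa5 and 0.38 for the noradrenaline transporter Slc6a2. Tph2 read 0.00, 2.14, 2.32, 2.19, 1.90, 2.06 and 1.22 on the treated arrays in time order, against 0.58 in untreated brain. The 7 hypothalamic genes detected had a median of -0.92, with Avp (vasopressin) at -1.38, Cartpt at -1.24, Oxt (oxytocin) at -1.15 and Hcrt (orexin) at -0.92. The 10 striatal genes had a median of -0.31 and the 9 cortical and hippocampal genes one of -0.27, and thalamic genes one of -0.33. Medians were -0.14 for myelin, 0.08 for choroid plexus, -0.05 for astrocyte and -0.04 for pan-neuronal genes. The pituitary gene Prl, prolactin, read 3.64, -0.64, 3.56, -0.49, 3.21, 0.48 and -0.63 on the treated brain arrays in time order, against 0.89 in untreated brain, which is not the order of the cerebellar genes. Myl2, a heart muscle gene, read 0.44, -0.11, 0.03, 0.08, 0.55, 1.47 and 2.79, against 2.93 in untreated brain. The part of these regional differences in the values of the cerebellar genes was not tested.

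**Figure D3:**
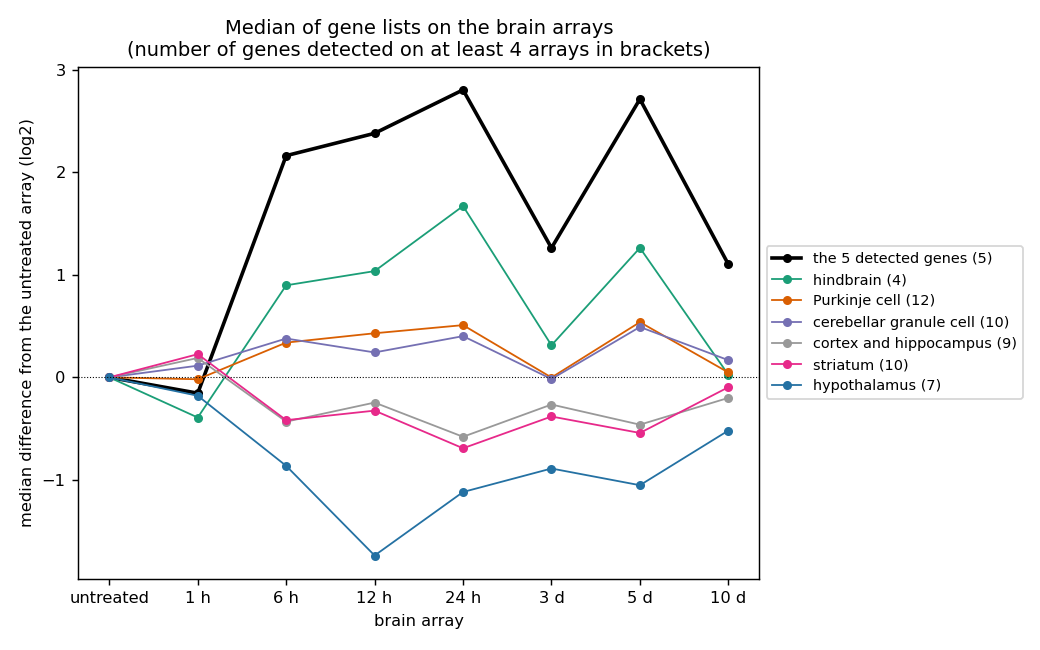
Median over the detected genes of a list of the difference from the untreated brain array (vertical axis, log2) on each brain array (horizontal axis, time order), for the 5 detected cerebellar genes in black and 6 other lists, with the number of genes in brackets. At 24 h the medians were 2.80 for the 5 genes, 1.67 for hindbrain, 0.51 for Purkinje cell and -1.12 for hypothalamus, while at 1 h those of the 5 genes and of hindbrain were -0.15 and -0.39.

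In the comparison of tissues, the 5 detected genes had higher means in brain than in heart and in liver. The genes were not chosen on this contrast, but its brain means hold the treated brain arrays on which they were chosen. The comparison is therefore not independent of the choice. With time as a block, limma called 37% of 10934 genes higher and 34.3% lower in brain than in heart, and 45.6% higher and 30.6% lower in brain than in liver, 71.4% and 76.2% in either direction, so a call alone says little. With quantile normalization over all 24 arrays the calls against liver were 4100 higher and 4156 lower, in place of 4986 and 3350. Pcp2, En2 and Zic1 entered the tests through the brain arrays alone and so had to differ; they are given as levels and lower bounds, and tests are given for Cbln1 and Gdf10. The labels do not say that arrays came from separate animals, so the p-values reflect the spread among arrays, which may be technical.

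Pcp2 averaged 2.98 ± 2.29 in brain, against -0.60 ± 0.16 in heart and -0.40 ± 0.13 in liver (SD, n = 8 arrays each). It was below the median on every heart and liver array, so the brain mean was at least 7.89-fold that of heart and 7.94-fold that of liver. In untreated mice and at 1 h Pcp2 was below the median in brain too and allows no fold. En2 averaged 2.13 ± 1.55 in brain, against -0.47 ± 0.12 in heart and -0.27 ± 0.13 in liver, with 0 of 16 heart and liver arrays above the median. The brain mean was at least 4.39-fold that of heart and 4.42-fold that of liver. Zic1 averaged 3.36 ± 1.11 in brain, against -0.61 ± 0.15 in heart and -0.22 ± 0.17 in liver. The brain mean was at least 10.3-fold that of heart. In liver 2 of 8 arrays were above the median and the highest Zic1 value was 0.01, so no fold is given. Zic1 and Cbln1 read higher in brain than in heart and liver at all 8 times.

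Cbln1 averaged 5.21 ± 1.17 in brain, against 0.03 ± 0.25 in heart and -0.08 ± 0.14 in liver, where 4 of 8 heart and 3 of 8 liver arrays were above the median. The fitted difference was 5.18 (SE 0.32, adjusted p = 5.46e-11) from heart and 5.29 (SE 0.32, adjusted p = 3.11e-11) from liver. On the untreated arrays alone, Cbln1 was higher in brain by 3.71 and 3.87. Gdf10 was the only one of the 7 genes detected on all 24 arrays, at 2.87 ± 1.03 in brain, 1.32 ± 0.63 in heart and 1.80 ± 0.31 in liver (SD, n = 8 each). Brain exceeded heart by 1.55 (SE 0.21, 2.94-fold, adjusted p = 2.39e-06) and liver by 1.07 (SE 0.21, 2.10-fold, adjusted p = 0.000146). The difference from liver was 0.58 (adjusted p = 0.0258) with quantile normalization over all 24 arrays. In untreated mice Gdf10 was not higher in brain than in liver, at 1.57 in brain and 1.65 in liver. The fitted difference of Gdf10 from liver thus rested on the treated arrays, on which the gene was chosen. Cbln3 and Calb1 were below the median in all 3 tissues and allow no fold.

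**Figure D4:**
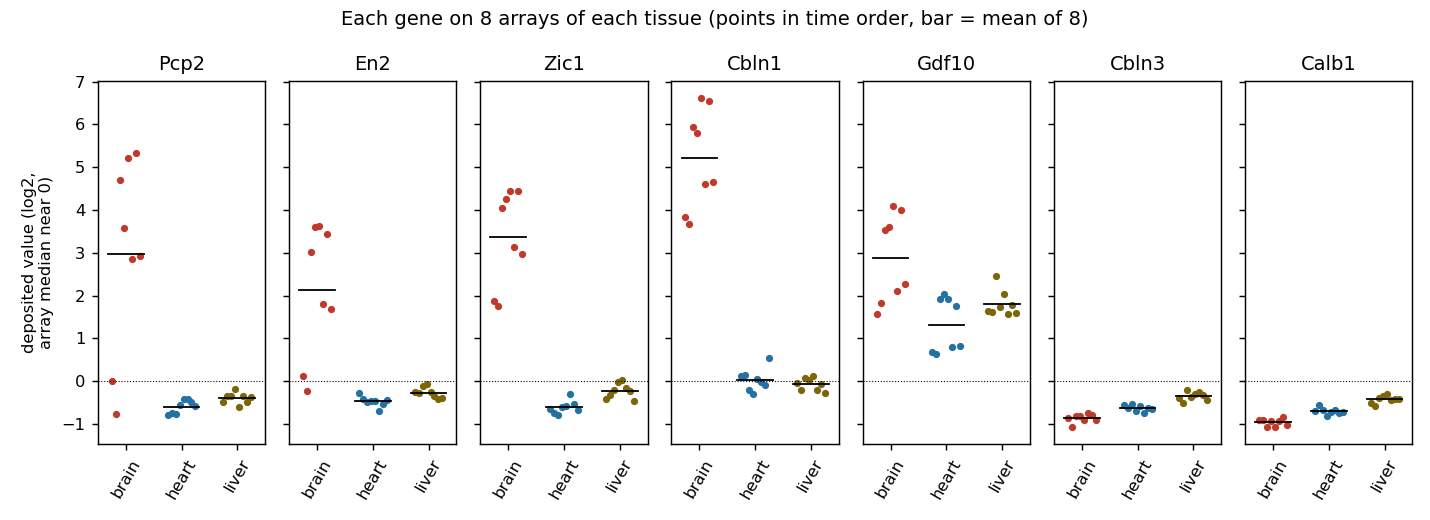
Deposited log2 value (vertical axis) of each gene on the 8 arrays of brain, heart and liver (points, in time order from left to right within a tissue; bars, mean of 8). The brain points of Pcp2, En2, Zic1, Cbln1 and Gdf10 are widely spread, Gdf10 alone also stands above 0 on every heart and liver array, and Cbln3 and Calb1 stay below 0 in every tissue.

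Treatment was also compared within heart and within liver. In heart, 0.11% of genes tested passed, all 12 lower in treated heart, and none of them was among the 5 cerebellar genes tested. In liver limma passed 0 genes, with 224 at an unadjusted p under 0.05 and a lowest adjusted p of 0.0731. Gdf10 differed by 0.73 between treated and untreated heart (SE 0.68, adjusted p = 0.874) and by 0.17 in liver (SE 0.68, adjusted p = 1), and neither passed. Cbln1 differed by -0.10 in heart (adjusted p = 0.984) and by -0.04 in liver (adjusted p = 1). The SE is shared by the 3 tissues and so holds the wide spread of these genes in brain; for Cbln1 it was 0.66, against an SD of 0.25 over the heart arrays, and a miss does not show that treated and untreated were alike. Pcp2, En2 and, in heart, Zic1 were below the median on every array, so no change of theirs was measurable there.

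Gdf10 nevertheless had its highest values at the same 4 times in all 3 tissues. Treated heart read 0.63, 1.92, 2.03, 1.91, 0.81, 1.74 and 0.81 in time order, against 0.68 in untreated heart. Treated liver read 1.61, 2.46, 1.72, 2.03, 1.56, 1.77 and 1.59, against 1.65 in untreated liver. The arrays of 6, 12 and 24 h and 5 d were the 4 highest in each tissue, at 1.74 to 2.03 in heart, where the other 4 ran from 0.63 to 0.81, and at 1.72 to 2.46 in liver, where they ran from 1.56 to 1.65. That order was shown by 6.8% of genes tested in heart and 16.7% in liver. The same 4 arrays were the lowest for 27.3% of genes tested in heart and 5.52% in liver. Over the 8 times, Gdf10 in brain correlated with Gdf10 in heart at r = 0.955 and with Gdf10 in liver at r = 0.604, as a description of 8 times with 1 array each. Brain minus heart for Gdf10 was 1.20, 1.61, 1.57, 2.17, 1.29, 2.25 and 1.47 from 1 h to 10 d, against 0.89 in untreated mice. These differences reuse the brain values on which Gdf10 was chosen and are all set against 1 untreated array per tissue. Nothing is read from their direction.

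**Figure D5:**
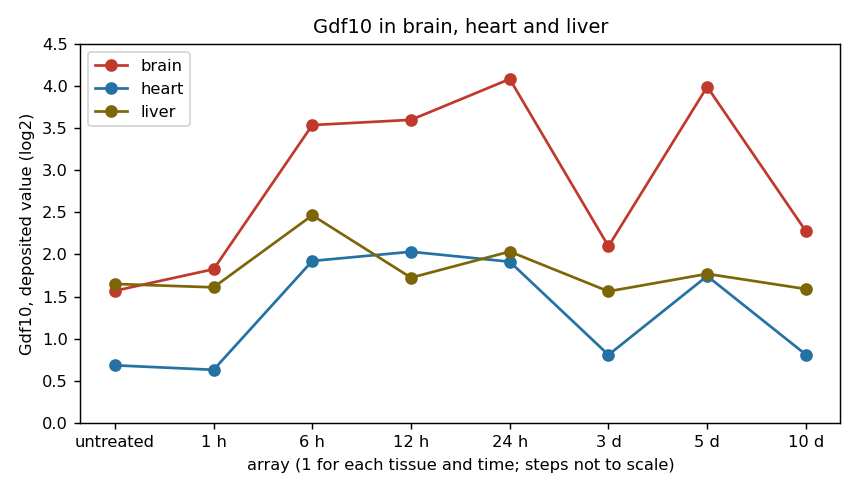
Deposited log2 value of Gdf10 (vertical axis) in brain, heart and liver against time (horizontal axis, 1 array per point, steps not to scale). In all 3 tissues the points of 6, 12 and 24 h and 5 d are the 4 highest, and on the untreated arrays brain (1.57) and liver (1.65) lie close together.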

How the data were processed

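Expression was measured on 24 Illumina bead arrays from biotinylated cRNA, per the labels' protocols. The deposited table holds log2 values of 25697 probes; the base is taken as 2, and the authors' background correction and normalization stand in no source used here. A second deposited table was not used, since its 24 value columns match no label. Probes with 1 gene symbol (23141; 2556 had none) gave 16110 genes, each taken by its highest-mean probe. Tests covered 10934 genes above the array median on at least 4 of 24 arrays, with limma 3.58.1 under R 4.3.3 (lmFit, eBayes; two-sided, on the deposited log2 values, Benjamini-Hochberg over all genes tested, call at adjusted p under 0.05). Tissue contrasts had time as a block; treated against untreated used 6 tissue and treatment groups. Tested on simulated data, brain minus heart recovered 89 of 100 genes changed by a log2 of 1 and 100 of 100 by 2, with 12 false calls among 10934; treated minus untreated heart recovered 55 and 92, with 7. The number of arrays limits the precision. The highest correlation between 2 arrays was 0.9964, so none was a copy. The genes, lists and tests were chosen with earlier results of these data known. Of each list, up to 4 detected genes with the largest difference in brain were named, plus the 10 highest and 5 lowest correlations. Zic4, Cbln2, Cbln4, Gabra6, Hopx, Fabp7, Septin4, Prl and Myl2 were singled out as relatives or defining markers after their values were seen. Pcp4, Fat2, Pax6, Mab21l1, Grm4, Gabrd, Grin2c and Aldoc were likewise named after their values were seen, as markers that were not detected or differed little.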

Additional observations from a re-analysis of the deposited data

How the results depend on the processing

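Alternatives were quantile normalization within a tissue or over all 24 arrays, a shift to 1 median, no detection filter, a stricter one, averaged probes, robust eBayes with a variance trend, another fold or reference, and leaving out each time or gene. The 64 alternative values of Cbln1 and Gdf10 against heart and liver all kept direction and call by limma (highest adjusted p = 0.0258). These values, and the mean difference of the 7 genes given below, reuse the treated brain arrays on which the genes were chosen. They are therefore not independent of the choice. Pcp2 and En2 were not tested under the stricter filter. Without the detection filter, calls were 11914 for brain minus heart and 13176 for brain minus liver, in place of 7805 and 8336, over more genes. For treated heart, 7 genes passed where detection was required on all 8 arrays of at least 1 tissue; for treated liver, 1 passed with the variance trend. Leaving out 1 time gave 7470 to 7688 calls against heart, 8072 to 8235 against liver, 9 to 21 in treated heart (21 without 1 h), 0 to 1 in treated liver (1 without 3 d or 10 d) and 0 in treated brain. The mean difference of the 7 genes in treated brain was 1.49, from 1.17 (without Pcp2) to 1.77 (without 1 h), 1.55 and 1.60 with quantile normalization within a tissue and over 24 arrays, 2.10 over the 5 detected genes and 1.87 with untreated and 1 h together as reference (the last 2 chosen after seeing the data). The median share of genes changed on a single brain array was 2.29%, 0.311% against the mean of the other 7 arrays and 14.5% at a 1.5-fold threshold. The mean of the 7 genes at 3 d turned to -0.31 against the mean of the other 7 arrays, from 1.03 against untreated; the new reference holds the 4 highest arrays. Tissues were paired by time through the block; without it, Gdf10 against liver had an adjusted p of 0.00602 by limma. For treated against untreated no paired analysis was possible because each tissue has 1 untreated array. With no replicate of any tissue and time, no single time can be tested.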
